A study of Mus musculus with 2 samples.

Results

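The genes of eicosanoid synthesis were followed in microglia of PARK7/DJ-1 knock-out (KO) and wild type (WT) mice after lipopolysaccharide (LPS), a component of bacterial membranes that provokes systemic inflammation. The set was a written list of 10 of the 19537 genes in the count matrices, ordered here by role: Pla2g4a, Ptgs1, Ptgs2, Ptges, Ptges3, Hpgds, Alox5, Alox5ap, Ltc4s and Pla2g7. The members were taken by name and no measured value entered the choice, although the list was written with earlier results of these data known. The group KO LPS carried a gene-trap allele of Park7 on a background backcrossed to C57BL/6NCrl, and WT LPS consisted of wild type littermates. All mice were 3 to 4 months old and had received LPS at 4 µg per g body weight 24 h before isolation, so no untreated group stands beside them here. Myelin was removed, CD11b+CD45int cells were sorted from the brain, and the cells were captured by Drop-seq, which counts the 3′ ends of transcripts by unique molecular identifiers (UMIs). Each genotype was represented by 1 library made from 2 pooled mice, 1 female and 1 male. With 1 library per genotype there was no replicate error, genotype and library cannot be told apart, and the genotypes were not tested against each other. The libraries are called KO and WT in the following, and both are from LPS-treated mice.

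Eicosanoids are short-lived lipid signals made from arachidonic acid. A phospholipase frees the fatty acid from membranes, the cyclooxygenases turn it into the unstable prostaglandin H2, and terminal synthases convert that into prostaglandin D2, prostaglandin E2, prostacyclin or thromboxane. On a parallel route, 5-lipoxygenase with its activating protein starts leukotriene synthesis. In macrophages and microglia the cyclooxygenase Ptgs1 is known as the constitutive enzyme and Ptgs2 as the one induced by inflammatory signals, and microglia are known for expressing the hematopoietic prostaglandin D synthase Hpgds.

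The members lie on 7 chromosomes, and positions are those of RefSeq on GRCm38.p6. Pla2g4a (chr1:149829618-149961290) and Ptgs2 (chr1:150100031-150108234) are neighbours, 138.7 kb apart with 2 annotated genes between them, neither of them protein coding. Ptgs1 lies at chr2:36216742-36258593 and Ptges at chr2:30889471-30931020, Hpgds at chr6:65117293-65144981 and Alox5 at chr6:116410071-116461178, Alox5ap at chr5:149265004-149288153, Ptges3 at chr10:128058982-128077254, Ltc4s at chr11:50236461-50238532, and Pla2g7 at chr17:43567994-43612202. Ptges overlaps Gm52550 and Gm13400, Alox5 overlaps Gm38880 and Pla2g7 overlaps 1700071M16Rik, and as the sources used here do not say whether counting used the strand, the counts of these 3 members are uncertain. Ptges3 has a processed pseudogene copy, so its counts are uncertain too.

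The promoters of the 2 cyclooxygenases are shown because the comparison of these genes is a main result, and that of Hpgds because it was the member with most UMIs. The 150 bases before the start are given 5′ to 3′ on the strand of the gene, from RefSeq on GRCm38.p6. They are chr2:36230276-36230425 on the plus strand for Ptgs1, chr1:150099881-150100030 on the plus strand for Ptgs2 and chr6:65144731-65144880 on the minus strand for Hpgds. The windows of Ptgs1 and Hpgds lie inside the annotated span of their gene. Capitals mark matches to the 2 motifs found in these windows, the Ets core GAGGAA known to be bound by PU.1 in myeloid cells, and the C/EBP motif TTNNGCAA.
Ptgs1: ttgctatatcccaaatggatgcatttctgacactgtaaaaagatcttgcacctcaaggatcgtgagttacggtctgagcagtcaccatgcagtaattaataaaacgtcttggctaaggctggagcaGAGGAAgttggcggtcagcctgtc
Ptgs2: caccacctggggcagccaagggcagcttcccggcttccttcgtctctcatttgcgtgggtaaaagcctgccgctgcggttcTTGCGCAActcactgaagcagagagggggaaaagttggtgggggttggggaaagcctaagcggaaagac
Hpgds: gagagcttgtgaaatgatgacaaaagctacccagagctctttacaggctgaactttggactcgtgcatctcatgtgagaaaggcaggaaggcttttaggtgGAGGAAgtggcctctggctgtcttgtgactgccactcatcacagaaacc

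In Ptgs1 the Ets core stood 24 bases before the start and in Hpgds 49 bases before it, while the C/EBP match of Ptgs2 stood 69 bases before it. Over 250 bases and both strands, GAGGAA was found in the promoters of Alox5, Hpgds, Ptges, Ptgs1 and Ptgs2, among the 9 members with a promoter in the table, and in 23.25% of 32851 promoters. TTNNGCAA was found in Hpgds and Ptgs2 and in 9.56% of all promoters. The NF-κB motif GGGANTTTC, the AP-1 motif TGANTCA, the E box CACGTG and the cyclic AMP response element TGACGTCA had no match in these 250-base windows, against 0.941%, 6.75%, 6.02% and 1.55% of all promoters, and TATAAA had a match in Pla2g4a, against 12.4%. A match describes letters in the sequence and does not show that a factor binds.

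Cells were barcodes with at least 500 UMIs and at least 100 genes, 320 of 9999 barcodes in KO and 1427 of 9999 in WT. They held 381305 and 1989011 UMIs, with medians of 963.5 and 1065 UMIs per cell, and no cell barcode was shared between the libraries. The study called cells with DropletUtils and kept more of them from both libraries, in KO by a wider margin, so its cells are not the same set. A level in CPM is the number of UMIs of a gene per 1000000 UMIs over all cells in the same library, with exact Poisson 95% intervals. The intervals cover counting error only. A single UMI was worth 2.62 CPM in KO and 0.503 CPM in WT, and a floor of 3 UMIs corresponded to 7.87 and 1.51 CPM. Park7 was at 2.62 CPM (1 UMI) in KO and 162.4 CPM (323 UMIs) in WT, which is the direction of the genotype labels. A list of 15 genes of homeostatic microglia was detected in full in both libraries, at 36546 CPM in KO and 17136 CPM in WT, while 24 inflammatory response genes summed to 1618 and 18156 CPM, with 16 of 24 and 24 of 24 detected. The part of these states in the levels of the members was not tested.

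Of the 10 members, 8 had UMIs in cells of KO and all 10 in WT. As each UMI marks a single 3′ end, transcript length does not enter the level, but capture can still differ between genes. In KO the order of levels was Hpgds, Ptgs1, Ltc4s, Alox5ap, Pla2g4a, Ptges3, Alox5 and Pla2g7, in which the intervals of neighbours overlapped for Alox5ap and Pla2g4a, for Pla2g4a and Ptges3 and for Alox5 and Pla2g7. In WT the order was Ptgs1, Hpgds, Alox5ap, Pla2g4a, Ptges3, Ltc4s, Alox5, Pla2g7, Ptges and Ptgs2, with overlap for Ptgs1 and Hpgds, for Ptges3 and Ltc4s and for Ptges and Ptgs2. Ltc4s thus stood above Alox5ap and Pla2g4a in KO and below both in WT, with intervals apart in each library. Among all genes of the matrices, Hpgds had rank 24 by level in KO and rank 139 in WT, and Ptgs1 rank 110 and rank 121.

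**Figure D1:**
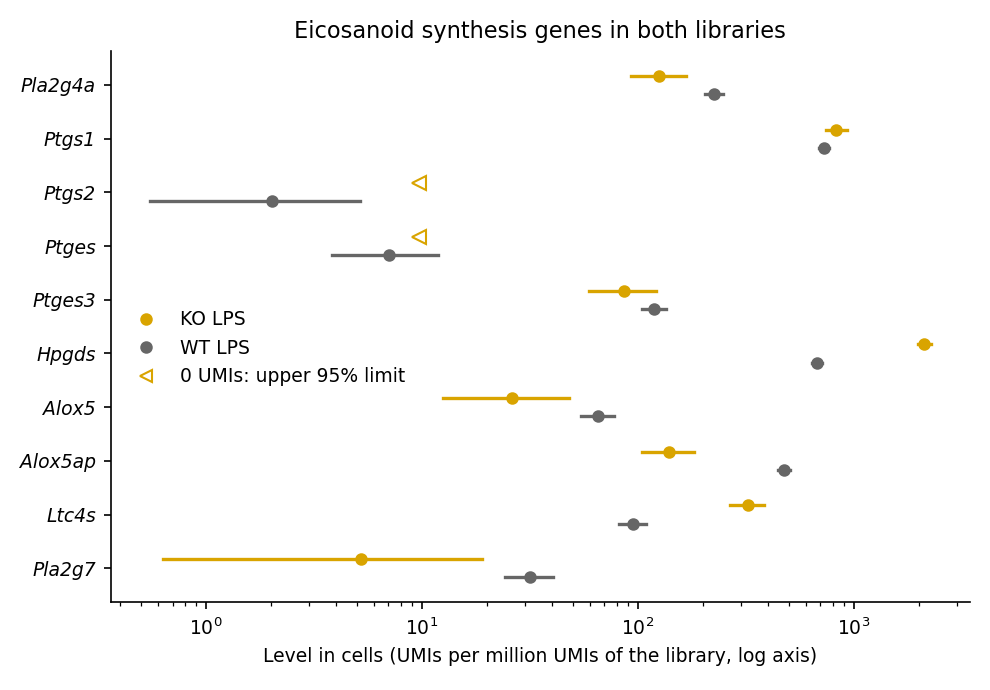
Level of each member in the cells of KO (yellow) and WT (grey), in CPM on a log axis, with exact Poisson 95% intervals as bars and open triangles for the upper limit where no UMI was seen. Hpgds is at 2122 CPM in KO and 674 CPM in WT, and both triangles, for Ptgs2 and Ptges, lie near 9.67 CPM, within or above the intervals of WT.

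At the first step, Pla2g4a, which encodes the cytosolic phospholipase A2 that releases arachidonic acid, was at 125.9 CPM (92.8 to 166.9; 48 UMIs) in KO and 225.7 CPM (205.3 to 247.6; 449 UMIs) in WT. Its level in KO was 0.558 times that in WT (95% interval 0.405 to 0.752), and the intervals of the levels did not overlap.

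The comparison of the 2 cyclooxygenases showed transcripts of Ptgs1 nearly alone in both libraries. Ptgs1 was at 831.4 CPM (742.3 to 928.1; 317 UMIs) in KO and 728.5 CPM (691.5 to 767; 1449 UMIs) in WT. Ptgs2 was not listed in the KO matrix, read as 0 UMIs, and had 4 UMIs in WT, or 2.01 CPM (0.548 to 5.15). Ptgs2 therefore made up 0 of 317 cyclooxygenase UMIs in KO, which allows a share of up to 0.946% by the floor of 3 UMIs and up to 1.16% by the Clopper-Pearson interval, and 4 of 1453 in WT, a share of 0.275% (Clopper-Pearson 95% interval 0.0751 to 0.703).

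Counted by cell, 174 of 320 cells of KO and 752 of 1427 cells of WT held Ptgs1 and no Ptgs2. A single cell of WT held Ptgs2 and no Ptgs1, no cell held both, and 45.6% and 47.2% of cells held neither. The level of Ptgs2 in WT lay under the floor of KO, so a difference of Ptgs2 between the genotypes was not detectable at this depth. Counting every barcode, cells or not, added 1 barcode of WT with 2 Ptgs2 UMIs, for 6 against 2152 of Ptgs1, and KO had 0 against 525.

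The 4 Ptgs2 UMIs of cells came from 1 cell of WT, described after its values were seen. It held 517 UMIs and 321 genes, near the lower limit for a cell. Of these UMIs, 60 were of the inflammatory response list, with 12 of Cxcl2, 13 of Il12b, 11 of Il1b and 10 of Ccl3, and 3 were of the homeostatic list. It held 0 UMIs of the 14 lists of other cell types. The WT cells gave Cxcl2 (r = 0.479), Il12b (r = 0.436) and Irg1 (r = 0.251) as the genes most like Ptgs2 across 1427 cells, and these values rest on the same cell.

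The ratio of Ptgs1 between the libraries was 1.14 (1.01 to 1.29), just beyond counting error. In cells with at least 1000 UMIs its log2 ratio was 0.21 from 212 and 1085 UMIs, against 0.19, but no longer beyond counting error. With library sizes scaled by TMM (trimmed mean of M values), which lowers all log2 ratios by 0.22, the ratio of Ptgs1 was 0.979 (0.864 to 1.11) and its direction turned. The direction of Ptgs1 thus depends on the scaling. The genes most like Ptgs1 in the WT cells were Bin2 (r = 0.157), Ivns1abp (r = 0.123) and Arrb2 (r = 0.116), over 1427 cells and 6089 genes, weak values in sparse counts.

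Hpgds, which converts prostaglandin H2 into prostaglandin D2, was, with 2149 UMIs over both libraries, the member with the most of them. It was at 2122 CPM (1978 to 2273; 809 UMIs) in KO and 673.7 CPM (638.1 to 710.8; 1340 UMIs) in WT, 3.15 times higher (2.88 to 3.44) in KO. The UMIs were spread over 250 cells of KO and 670 of WT, and the 3 cells with most of them held 5.44% and 3.06% of the total. As given below, a droplet of free RNA would hold Hpgds as often as these cells, so this spread does not show how many cells express it. Relative to Ptgs1, there were 2.55 (2.24 to 2.92) Hpgds UMIs per Ptgs1 UMI in KO and 0.925 (0.858 to 0.997) in WT, a comparison within each library that scaling cannot move. Hpgds is also known from mast cells and megakaryocytes: 7 mast cell genes had 0 UMIs in either library, and the platelet list was at 26.2 CPM (12.6 to 48.2; 10 UMIs) in KO and 14.6 CPM (9.77 to 20.9; 29 UMIs) in WT. These UMIs came from 1 of the 4 platelet genes in the matrices in KO and from 3 of them in WT. The part of platelets was not tested.

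The prostaglandin E synthases were low. Ptges, the inducible microsomal prostaglandin E synthase that works with Ptgs2, had 0 UMIs in KO and 14 UMIs in 12 cells of WT, or 7.04 CPM (3.85 to 11.8), which is under the floor of KO, so that no difference was detectable. Ptges3, the cytosolic prostaglandin E synthase that is also known as the co-chaperone p23, was at 86.5 CPM (59.6 to 121.5; 33 UMIs) in KO and 119.2 CPM (104.5 to 135.3; 237 UMIs) in WT. Its ratio of 0.726 (0.489 to 1.05) was within counting error, but it was lower beyond it with TMM and in barcodes with at least 100 genes and no UMI minimum. Transcripts of Hpgds were thus above those of both E synthases in each library.

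In the leukotriene branch the members went in different directions. Alox5, the 5-lipoxygenase, was at 26.2 CPM (12.6 to 48.2; 10 UMIs) in KO and 65.4 CPM (54.6 to 77.6; 130 UMIs) in WT, a ratio of 0.401 (0.188 to 0.762). In cells with at least 1000 UMIs its log2 ratio was -0.84 from 9 and 96 UMIs, against -1.30, and no longer beyond counting error. Alox5ap, which encodes the membrane protein FLAP that presents arachidonic acid to 5-lipoxygenase, was at 139 CPM (104.1 to 181.8; 53 UMIs) in KO and 476.6 CPM (446.8 to 508; 948 UMIs) in WT, a ratio of 0.292 (0.217 to 0.385). Ltc4s, the synthase that conjugates leukotriene A4 with glutathione, was at 322.6 CPM (268.1 to 384.9; 123 UMIs) in KO and 95.0 CPM (82.0 to 109.6; 189 UMIs) in WT, a ratio of 3.39 (2.68 to 4.28). The first enzyme and its partner were lower and the terminal synthase higher in KO.

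Seen as ratios within a library, there were 2.32 (1.67 to 3.27) Ltc4s UMIs per Alox5ap UMI in KO and 0.199 (0.170 to 0.233) in WT. The ratio of Alox5ap to Alox5 was 5.30 (2.67 to 11.7) and 7.29 (6.07 to 8.83), with overlapping intervals. Alox5 and Alox5ap together were at 165.2 CPM in KO and 542 CPM in WT, a ratio of 0.305 (0.233 to 0.393). Ptgs1 and Hpgds together were at 2953 and 1402 CPM, a ratio of 2.11 (1.96 to 2.26), and Hpgds made up 71.85% of this sum in KO and 48.05% in WT.

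Alox5ap and Alox5 are also expressed by neutrophils. The 7 neutrophil genes had 0 UMIs in KO and 136 in WT (68.4 CPM), and the 6 monocyte genes were at 26.2 CPM (10 UMIs) in KO and 15.6 CPM (31 UMIs) in WT. Leaving out every cell with at least 3 UMIs of any list of another cell type, an alternative chosen after the data were seen that kept 305 and 1394 cells, gave a log2 ratio of -1.79 for Alox5ap, against -1.78 with all cells, and -1.22 for Alox5, against -1.30. The choroid plexus list was at 2119 CPM in KO and 14.6 CPM in WT, and without these cells the log2 ratios of Hpgds and Ltc4s were 1.70 and 1.81, against 1.65 and 1.76.

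Pla2g7, the secreted hydrolase of platelet-activating factor, had 2 UMIs in 1 cell of KO (5.25 CPM, 0.635 to 19.0) and 63 UMIs in WT (31.7 CPM). The ratio of 0.166 (0.0196 to 0.624) rests on that cell, and without cells holding UMIs of other cell types it had 0 UMIs in KO and 52 in WT.

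Over the 8 members with at least 20 UMIs in both libraries together, 4 were lower in KO beyond counting error (Pla2g4a, Alox5, Alox5ap and Pla2g7) and 3 higher (Ptgs1, Hpgds and Ltc4s), where beyond means that the 95% interval of the ratio excluded 1. Among all 9085 genes with at least 20 UMIs, 18.7% were lower and 19.6% higher by the same rule, and the median log2 ratio was -0.02. With TMM-scaled library sizes 5 members were lower and 2 higher, Ptges3 being added to the lower ones and Ptgs1 no longer among the higher, and 25.5% of all genes were lower and 14.1% higher. At least 2-fold lower were Alox5, Alox5ap and Pla2g7, 3 of 8 members, against 17.1% of all genes, and at least 2-fold higher were Hpgds and Ltc4s, 2 of 8, against 12.9%. Among those counted as lower, Pla2g7 (2 UMIs in KO, 63 in WT) and Alox5 (10 and 130) passed the minimum of 20 UMIs through WT alone. As WT holds more UMIs, this minimum favours genes high in WT, among the members as among all genes. The ratio of Hpgds exceeded that of 95.9% of the 9085 genes, that of Ltc4s exceeded 96.6%, and 93.0% of genes had a higher ratio than Alox5ap.

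**Figure D2:**
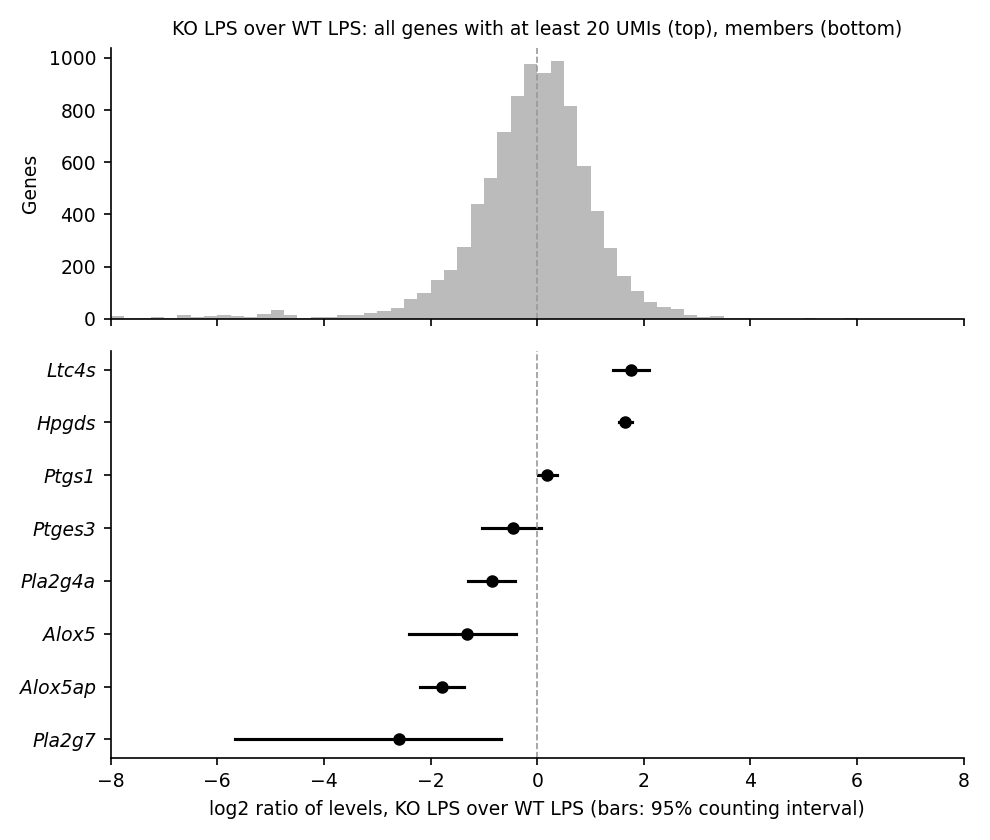
Top, number of genes (y axis) by log2 ratio of KO over WT for the 9085 genes with at least 20 UMIs, with ratios beyond the axis drawn at its ends; bottom, the same ratio for the 8 members with at least 20 UMIs, with 95% counting intervals as bars. Ltc4s (1.76) and Hpgds (1.65) lie in the right tail, Alox5ap (-1.78), Alox5 (-1.30) and Pla2g7 in the left, and Ptgs1 (0.19) near the centre.

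Shares of cells depend on depth, so every cell was thinned to 500 UMIs before the libraries were compared. Hpgds was then found in 58.8% of KO cells (53.1 to 64.2) and 26.3% of WT cells (24.0 to 28.6), against 78.1% and 47.0% before thinning. Ltc4s was found in 13.4% (9.90 to 17.7) and 4.14% (3.16 to 5.30), against 28.1% and 10.9% before thinning. Alox5ap was found in 5.63% (3.37 to 8.74) and 19.5% (17.5 to 21.6), against 12.5% and 40.6%. Pla2g4a was found in 5.94% (3.61 to 9.12) and 10.8% (9.23 to 12.5), against 11.6% and 22.1%. For these 4 members the intervals did not overlap, 2 lower and 2 higher in KO, where among all 9085 genes 6.58% were lower and 6.46% higher with intervals apart. The intervals of Pla2g4a overlapped when cells were thinned to 1000 UMIs, at 13.5% (8.45 to 20.1) and 18.1% (15.4 to 21.0), and also without the 5% of cells with most UMIs.

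Ptgs1 was found in 33.4% (28.3 to 38.9) and 29.9% (27.6 to 32.4) of cells at 500 UMIs, with overlapping intervals. Thinned shares of Ptges3 were 4.38% and 4.77%, those of Alox5 0.938% and 3.01%, and those of Pla2g7 0.313% and 1.40%, and all 3 pairs overlapped. Before thinning, Ptgs1 was found in 54.4% and 52.7% of cells.

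Free RNA in droplets puts UMIs into cells that do not express a gene. A droplet of 500 UMIs drawn only from barcodes with up to 100 UMIs would hold Hpgds in 61.9% of cases in KO and 30.9% in WT, above the shares of cells in both libraries. The shares of Hpgds are therefore not above this background and do not show which cells express it. For Pla2g4a the background was 5.62% and 11.5%, for Alox5 1.25% and 2.50%, for Pla2g7 in WT 1.26%, for Ptges3 in WT 4.34% and for Ltc4s in KO 10.7%, within the intervals of the cells. Above it were Ptgs1 in both libraries (26.8% and 26.6%), Ptges3 in KO (1.99%) and, in WT, Alox5ap (5.84%), Ltc4s (1.57%) and Ptges (0.158%, against 0.491% of cells). Ptgs2 in WT and Pla2g7 in KO, each found in 1 cell, had a background of 0. At 1000 UMIs per cell Ptgs1 in WT, with 49.4% (45.8 to 52.9) against a background of 46.1%, was no longer above it, and neither were Ptges3 in KO and Ptges in WT, while Ptges3 in WT then was. At 500 UMIs the background of Alox5ap in KO (4.43%) was within the interval.

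**Figure D3:**
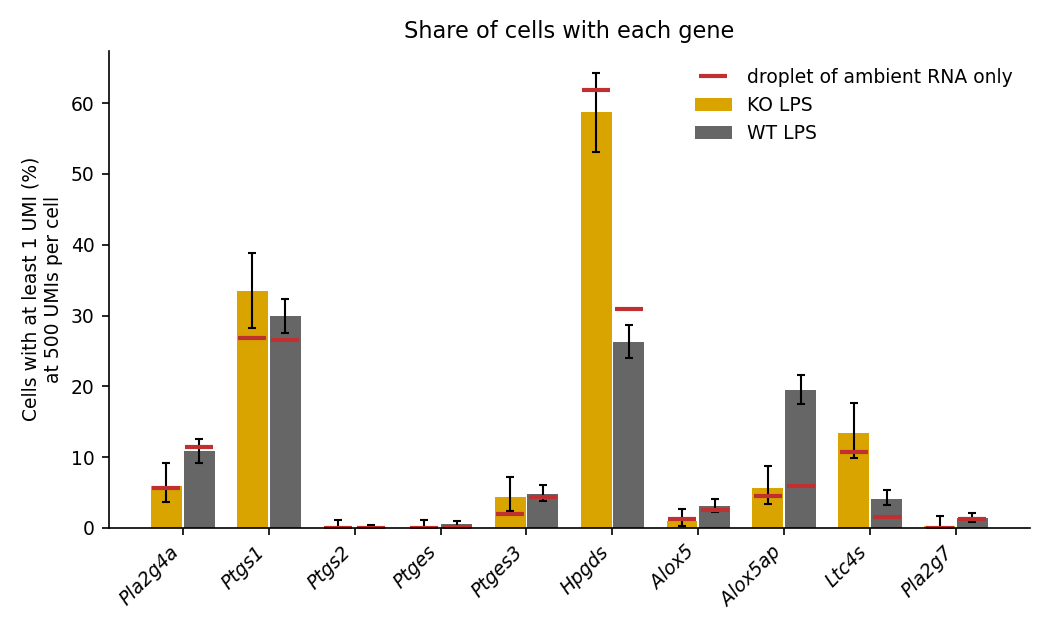
Share of cells with at least 1 UMI of each member at 500 UMIs per cell (y axis, in percent) in KO (yellow) and WT (grey), with exact Clopper-Pearson 95% intervals, and red lines for the share expected in a droplet of ambient RNA. In WT, Alox5ap is at 19.5% and its line at 5.84%, while both Hpgds bars lie under their lines.

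The barcodes not counted as cells here can be set beside the cells. They mix free RNA with small barcodes that the study may have kept as cells. With no UMI minimum, 676 KO and 3618 WT barcodes had at least 100 genes, against 320 and 1427 cells. Their UMIs held Alox5ap at 154.9 CPM (113.8 to 206) in KO and 163.8 CPM (140.5 to 189.8) in WT, which overlapped. In barcodes with up to 100 UMIs alone it was at 90.6 CPM (18 UMIs) in KO and 120.3 CPM (38 UMIs) in WT. With at least 100 genes and no UMI minimum, the log2 ratio of Alox5ap was -1.29, against -1.78 in cells, so the difference was smaller with small barcodes included. Barcodes between these sizes were not compared by themselves. The level in cells over that in all barcodes not counted as cells was 2.91 times (2.48 to 3.44) in WT and 0.897 times (0.594 to 1.36) in KO. For Hpgds the same factor was 1.03 (0.930 to 1.15) in KO and 0.981 (0.896 to 1.08) in WT, so that cells and other barcodes did not differ beyond counting error. As the other barcodes mix free RNA and small barcodes, this does not tell those apart.

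The number of UMIs per cell followed the levels. At 500 UMIs, 12.5% of KO cells held 3 or more Hpgds UMIs and 41.3% held 0, against 1.61% and 73.7% of WT cells, and the highest cell held 9 in KO and 5 in WT. For Ptgs1 the cells with 3 or more were 1.56% and 1.05%. Alox5ap reached 2 UMIs in 0.938% of KO cells and 2.73% of WT cells, and no KO cell held 3.

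**Figure D4:**
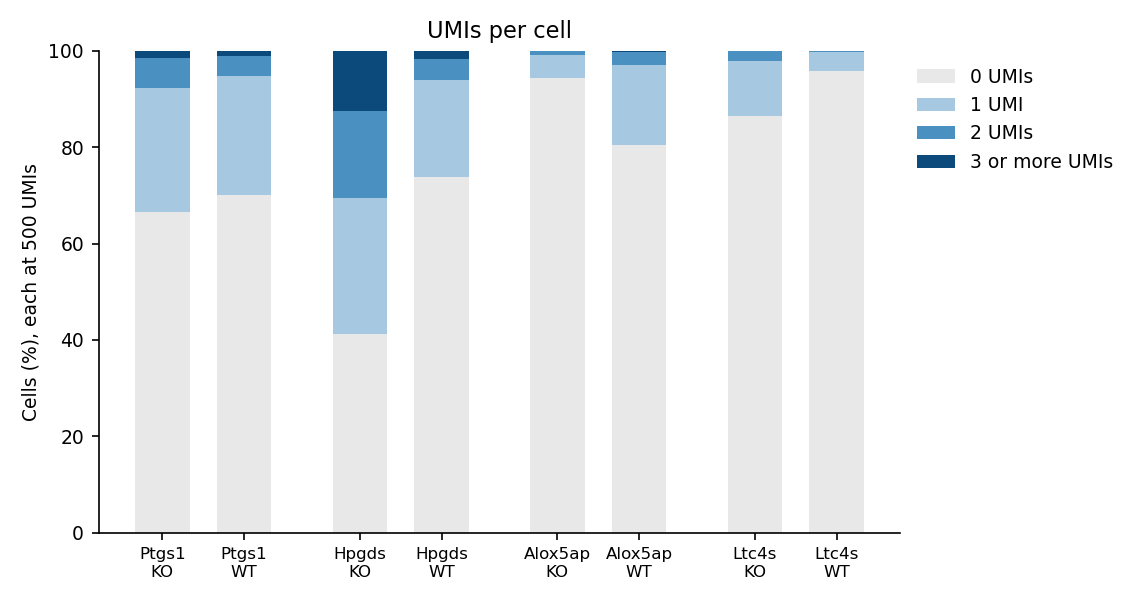
Share of cells (y axis, in percent) by the number of UMIs they hold of Ptgs1, Hpgds, Alox5ap and Ltc4s, each cell at 500 UMIs, with a bar for KO and a bar for WT under LPS. The dark part of the Hpgds bars, 3 or more UMIs, is 12.5% in KO and 1.61% in WT, and for Ptgs1 it is 1.56% and 1.05%.

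Detection of the members together in a cell was described at 500 UMIs, where most cells hold 0 UMIs of most members. Alox5ap was found in 18.7% of the 427 WT cells with Ptgs1 and 19.8% of the 1000 without, with overlapping intervals. In KO it was found in 6.54% of the 107 cells with Ptgs1 and 5.16% of the 213 without, also with overlapping intervals, but its share in KO was not above the ambient background, so this says nothing of which cells express it. Hpgds, whose shares were not above the ambient background, and Alox5, found in 3 KO cells, were too uncertain for such a comparison.

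The cells of the pooled mice could be told apart in part by Xist and Y-linked transcripts. Cells with Xist and no Y-linked UMI numbered 200 in KO and 565 in WT, and cells with Y-linked and no Xist UMI 12 and 195. In the Xist cells Hpgds was 3.19 times (2.82 to 3.61) and Ltc4s 3.86 times (2.73 to 5.48) as high in KO as in WT, and Alox5ap 0.302 times (0.204 to 0.432). In the Y-linked cells Hpgds was 2.53 times (1.61 to 3.80) as high, from 26 UMIs in KO. The 12 cells of KO with Y-linked UMIs held 14445 UMIs in all, and of the other members only Ptgs1 had a ratio whose interval excluded 1 there, at 0.414 (0.133 to 0.979) from 5 UMIs in KO. The cells with Y-linked UMIs were 5.66% of those assigned in KO and 25.7% in WT, so the makeup of the assigned cells differed between the libraries. A cell without Y-linked UMIs is not shown to be female at this depth, and the shares of the 2 mice in each library were not determined here. The paper assigned its own set of cells to females and males by high or low Xist, which is a different rule. The part of this in the pooled ratios was not tested beyond the split given here, and 108 KO cells and 667 WT cells held both or neither kind of transcript.

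The rest of the pathway was described by 86 further genes in 5 groups, of which 76 were in the matrices and 44 had at least 20 UMIs. Of these 44, 11 were lower in KO beyond counting error, 14 higher and 19 within it, against 18.7% lower and 19.6% higher among all 9085 genes, the shares against which the groups below can be read. With TMM 12 were lower and 10 higher, against 25.5% and 14.1% of all genes. As WT holds more UMIs, the minimum of 20 UMIs drops genes high in KO more readily. Ptgds, Ephx1, Ptger1 and Ptger3, named after their values were seen, fell under it. Without it they were higher in KO beyond counting error, from at most 10 UMIs there, and no lower gene was added. For Ptgds, 90% of its 10 UMIs in KO lay in 3 cells. The share of all genes was not computed without the minimum, so no count is given. Among the lower genes, Pla2g12a, Akr1b3, Cyp4f18, Cyp4f16 and S100a10 passed the minimum through WT alone, with at most 7 UMIs in KO, as did the 3 lower receptors given below. The counts of lower genes in each group below thus include genes that did so. The median log2 ratio of the 44 genes was 0.04, with and without genes at 0 UMIs set to their bound. As for the members, free RNA enters these levels: in barcodes with up to 100 UMIs, Cysltr1 was at 362.3 CPM in KO and 158.4 CPM in WT, against 165.2 and 122.7 CPM in cells, and Hpgd was at 392.5 and 66.5 CPM, against 364.5 and 102.6 CPM in cells. From each group the highest and the lowest ratio and the gene with most UMIs are named.

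Of the 13 genes of substrate release and reacylation, 8 were higher and 1 lower in KO, with a median log2 ratio of 0.53, and with TMM 5 were higher and 1 lower. Mgll, the monoacylglycerol lipase that yields arachidonic acid from the endocannabinoid 2-arachidonoylglycerol in brain, was highest at 5.59 times (3.59 to 8.72), from 118 and 21.1 CPM. Lpcat2, which makes platelet-activating factor and reacylates phospholipids, had most UMIs and was at 760.5 and 642 CPM, a ratio of 1.18 (1.04 to 1.35), or 1.02 (0.892 to 1.16) with TMM. Pla2g12a, a secreted phospholipase A2, was lowest at 0.237 times (0.0278 to 0.909) from 2 and 44 UMIs.

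Of 7 other terminal synthases 1 was higher and 1 lower. Tbxas1, the thromboxane A synthase, had most UMIs, at 178.3 CPM in KO and 96.0 CPM in WT, 1.86 times higher (1.39 to 2.46). Mgst3, a microsomal glutathione transferase, had the highest ratio, 2.20 (0.832 to 5.25), and Ptges2, a further prostaglandin E synthase, the lowest, 0.261 (0.00629 to 1.63), both within counting error. Of 8 genes of breakdown, 2 were higher and 2 lower: Hpgd, the dehydrogenase that inactivates prostaglandins, was both the highest and the one with most UMIs, at 364.5 and 102.6 CPM, 3.55 times higher (2.84 to 4.43). Cyp4f18, an oxidase of leukotriene B4, was lowest at 0.100 times (0.00249 to 0.584) from 1 and 52 UMIs. Both the synthase Hpgds and the dehydrogenase Hpgd were thus higher in KO.

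Among 6 receptors 3 were lower and 2 higher. The 3 lower ones passed the minimum of 20 UMIs through WT alone, while receptors with most of their UMIs in KO could fail it, so the count of this group depends on the filter. They had 0 UMIs in KO: against the floor of 3 UMIs, Fpr1 was at least 7.16-fold lower, Fpr2 at least 3.51-fold lower, and Ptger4, a receptor of prostaglandin E2, at least 2.11-fold lower, and with the counting error of both libraries the 95% intervals reached down to 5.73-fold, 2.76-fold and 1.62-fold. The formyl peptide receptors Fpr1 and Fpr2 are known from neutrophils and activated myeloid cells, and the neutrophil list had 0 and 136 UMIs. Their part in these values was not tested. Ptafr, the receptor of platelet-activating factor, was highest at 3.09 times (1.93 to 4.87), and Cysltr1, the receptor of the cysteinyl leukotrienes, had most UMIs at 165.2 and 122.7 CPM, a ratio of 1.35 (1.00 to 1.78), or 1.16 (0.862 to 1.53) with TMM.

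Of 10 genes of transport and regulation 4 were lower and 1 higher, with a median log2 ratio of -0.30. Slco2b1, an organic anion transporter, was 2.01 times higher (1.72 to 2.33) in KO. S100a10, the partner of annexin A2, was lowest at 0.180 times (0.0213 to 0.680) from 2 and 58 UMIs, and the chaperone Hsp90ab1, with which p23 works, had most UMIs at 1435 and 3443 CPM, a ratio of 0.417 (0.381 to 0.455).

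**Figure D5:**
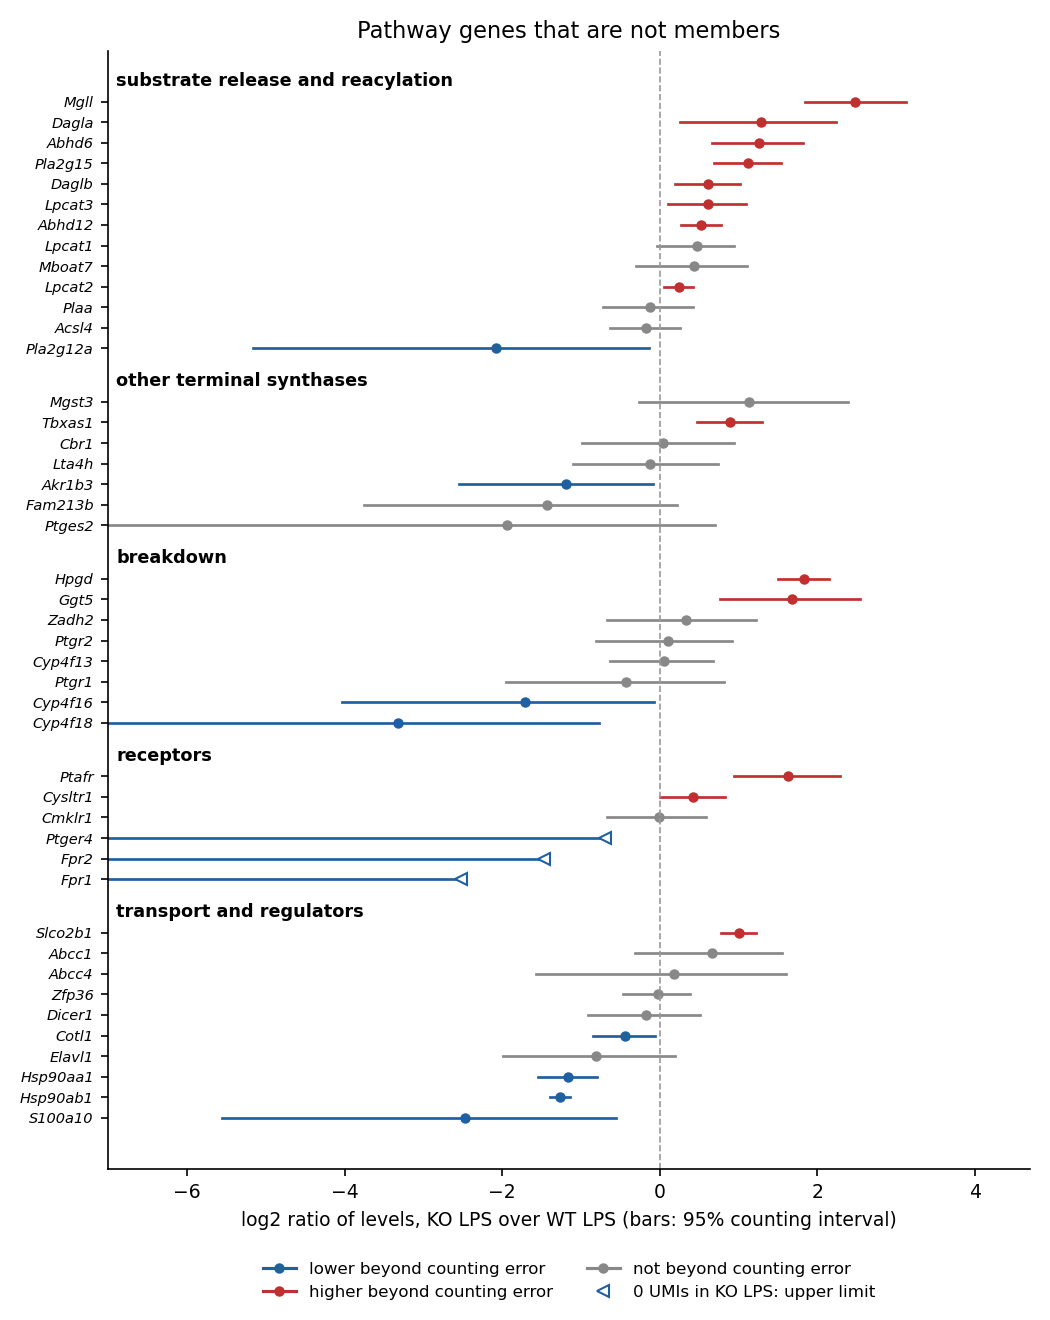
log2 ratio of KO over WT (x axis) for the 44 pathway genes that are no members and have at least 20 UMIs, by group, with 95% counting intervals, in red where higher, blue where lower and grey where within counting error, and open triangles for the upper limit of genes with 0 UMIs in KO. Of the 13 genes of substrate release, 8 are red and 1 is blue.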

How the data were processed

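Drop-seq counts of CD11b+CD45int microglia were analysed from 2 libraries, KO LPS and WT LPS, grouped by the genotype labels. The authors deposited raw UMI counts per gene and barcode, without normalisation and not filtered to cells. KO LPS listed 13921 and WT LPS 16501 of the 19537 genes, and a gene missing from a matrix was read as 0, so Ptgs2 and Ptges were read as 0 in KO LPS. The submitters' processing notes name bcl2fastq 2.0, STAR, mm9 and mm10. The counting program, the annotation and the use of strand are not given in the sources used here.

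Cells were barcodes with at least 500 UMIs and 100 genes. No cell barcode was shared, although 11 were over all barcodes. Doublets were left in, and the 5% of cells with most UMIs were left out as an alternative. UMIs were summed over cells and scaled to 1000000. Ratios carry exact conditional binomial 95% intervals and shares exact Clopper-Pearson intervals, all for counting error only, since UMIs of 1 library are no replicates. log2 ratios used a prior of 0.5 UMIs, and ratios across genes needed 20 UMIs. The background of shares came from barcodes with up to 100 UMIs. Of the pathway list, 10 symbols were not found. The members and lists were chosen with earlier results of these data known. Named were all members, Park7, per pathway group the highest and lowest ratio and the gene with most UMIs, and the 3 genes most correlated with Ptgs1 and Ptgs2 over WT LPS cells, among genes with at least 50 UMIs. TMM factors came from edgeR 4.0.16 (R 4.3.3), and the rest from Python 3.11.15 with numpy 2.4.6, scipy 1.17.1 and pandas 2.3.3, tested on simulated data.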

Additional observations from a re-analysis of the deposited data

Results flagged for a closer look

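Hpgds and Ltc4s were also above WT LPS in barcodes that were not counted as cells, which the comparison of cells does not use. There Hpgds was at 2053.2 CPM in KO LPS against 686.6 CPM in WT LPS, and Ltc4s at 257.1 CPM against 36.3 CPM. The ratio of Ptgs1 was on opposite sides in cells with Xist and in cells with Y-linked transcripts, 1.21 (1.03 to 1.42) and 0.414 (0.133 to 0.979), the latter from 5 UMIs in 12 cells of KO LPS. The difference between these cells was not tested.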

How the results depend on the processing

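Of 140 alternative values, 117 stayed within the 95% interval of the main value, or within 1.5 times of a main count. A further 18 moved further and 5 turned the direction of a ratio that was beyond counting error. The cause was not tested except where the cells left out are named. Some of the 117 could not move or hardly could. Ptgs2 is not listed in the KO LPS matrix, so its share there was 0 in every alternative, and centring on the median shifted log2 ratios by 0.02. The 117 thus overstate how stable the values are. In cells with Y-linked and no Xist UMIs, 12 of them in KO LPS, the log2 ratios of Alox5 (0.16), Pla2g4a (0.38), Ltc4s (-0.95) and Ptgs1 (-1.26) reversed. Ptges3 (0.16, within counting error in all cells) changed sign too, and Hpgds was at 1.33. The counts of members and pathway genes called also moved in these cells, where the share of all genes was not computed. With TMM, Ptgs1 reversed to -0.0304 and Hpgds was at 1.43. The share of Ptgs2 in WT LPS was 0 with at least 1000 UMIs per cell, 0 in cells with Xist and 0 in cells with Y-linked UMIs, which leave out the single cell with Ptgs2, and 0.739% as a mean of the cells' own CPM. Alox5ap was at -1.29 in barcodes with at least 100 genes and no UMI minimum, which hold 676 and 3618 barcodes, and Pla2g7 at -5.97 without cells holding UMIs of other cell types, where KO LPS had 0 UMIs. Of 44 pathway genes, 9 were at least 2-fold higher and 12 lower, against 12.9% and 17.1% of all genes. Of 38 measured in cells with Xist, 13 were higher and 7 lower, and the share of all genes was not computed there. The members with a lower share of cells in KO LPS numbered 4 without thinning. There was 1 when thinned to 1000 UMIs and 1 without the 5% of cells with most UMIs, where Alox5ap was the one left. The share of all genes, 6.58% lower, was computed only for all cells thinned to 500 UMIs. It was not computed in these alternatives, so their counts cannot be read against all genes. No paired analysis was possible because each genotype has 1 library, which is also why no replicate could be left out. Depth limits Ptgs2 and Ptges in KO LPS, where 3 UMIs are 7.87 CPM.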
